A study of Mus musculus with 6 samples.

Results

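The chemokine system was examined in hearts of *Clk4*-cKO mice treated with either of a pair of forms of NEXN, an actin-binding protein of the cardiac Z-disc. The genes were taken by symbol, as every chemokine ligand (*Ccl*, *Cxcl*, *Cx3cl1*, *Xcl1*), every conventional receptor (*Ccr*, *Cxcr*, *Cx3cr1*, *Xcr1*) and every atypical receptor (*Ackr*) on the array. Earlier results of these data were known when the family was chosen. The symbol rule gave 58 genes of 27307 with a symbol, namely 36 ligands, 18 receptors and 4 atypical receptors, read by 82 probes. Myocardial RNA from male C57BL/6J mice was hybridised to 6 one-colour Agilent arrays. All the mice lacked *Clk4* in cardiomyocytes through a floxed allele and a tamoxifen-inducible Cre driven by the α-MHC promoter, and their age at collection is not given in the labels. The control group received AAV NEXN-WT (n = 3) and the other group AAV NEXN-S437E (n = 3), in which glutamate replaces a serine to mimic its phosphorylation. The vector was an AAV9 that also carried GFP, under a CMV promoter that is not restricted to cardiomyocytes. No *Clk4*-replete heart and no heart without NEXN vector was among the arrays, so each difference below is between NEXN-S437E and NEXN-WT on the same *Clk4*-deficient background.

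Chemokines are small secreted proteins that attract leukocytes through receptors coupled to G proteins. CC and CXC ligands are named for the spacing of their first cysteines, and most inflammatory ligands share receptors, whereas homeostatic pairs such as CXCL12 with CXCR4 guide resident cells. Atypical receptors bind ligands without G-protein signalling and shape the gradients. In the heart, macrophages, fibroblasts, endothelial cells and infiltrating lymphocytes are the known sources and targets of most of these molecules.

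Interferon and T-cell programmes are known to act through short motifs in chemokine promoters, so the 250 bases before the annotated transcription start are shown for a ligand and receptors whose signals were lower with NEXN-S437E and for the neighbouring ligand *Cxcl9*. The sequences are from RefSeq on GRCm38.p6 and read 5′ to 3′ on the gene's strand, with a match to the core of the interferon-stimulated response element (GAAA, any 2 bases and GAAA again, searched on both strands) in capitals.
Cxcl10, chr5:92348890-92349139, minus strand: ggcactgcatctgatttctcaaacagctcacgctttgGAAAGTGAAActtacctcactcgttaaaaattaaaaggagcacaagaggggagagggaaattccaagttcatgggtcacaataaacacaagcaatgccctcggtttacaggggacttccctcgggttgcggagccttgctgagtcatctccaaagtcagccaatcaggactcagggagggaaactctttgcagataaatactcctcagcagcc
Cxcl9, chr5:92328080-92328329, minus strand: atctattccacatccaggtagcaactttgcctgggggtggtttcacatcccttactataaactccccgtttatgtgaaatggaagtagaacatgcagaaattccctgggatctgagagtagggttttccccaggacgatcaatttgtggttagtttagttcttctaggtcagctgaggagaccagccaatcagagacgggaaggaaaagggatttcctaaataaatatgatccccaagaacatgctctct
Cxcr3, chrX:101734148-101734397, minus strand: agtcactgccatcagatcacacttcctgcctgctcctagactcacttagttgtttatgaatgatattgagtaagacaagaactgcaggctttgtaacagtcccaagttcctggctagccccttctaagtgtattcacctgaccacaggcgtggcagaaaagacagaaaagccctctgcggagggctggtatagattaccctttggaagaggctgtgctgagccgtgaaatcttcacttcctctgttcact
Cxcr6, chr9:123806227-123806476, plus strand: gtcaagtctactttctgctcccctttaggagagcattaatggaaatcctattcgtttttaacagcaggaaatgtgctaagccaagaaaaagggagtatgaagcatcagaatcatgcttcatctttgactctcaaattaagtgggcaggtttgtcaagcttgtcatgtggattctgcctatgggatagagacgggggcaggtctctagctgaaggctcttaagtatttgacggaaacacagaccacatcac
In the *Cxcl10* window the match runs from base -213 to base -204 before the start. The same letters were found in 978 of 32851 promoter windows of this length (2.98%) and, among 47 windows of 43 member genes, in those of *Ccl19*, *Cxcl10* and *Cxcl14*. None of the 4 windows printed held the other letters searched. Each is 1 fixed form of a motif and misses variant sites, so their absence does not show that a window lacks such a site. The letters were TTCNNNGAA, the GAS element of STAT factors (7.02% of all windows), GGGA, any base and TTTCC, 1 form of κB site (0.356%), and AGGTGTGA, the T-box motif (1.12%). The κB letters were found before *Ccr3*, *Cxcl1*, *Cxcl2* and *Cxcl3*, the GAS letters before *Ccl17*, *Ccr6* and *Cxcl14*, and the T-box letters before *Ccl20*. Of the 11 genes called below, 5 have a window in the table used. Those of the lower ligands *Ccl12* and *Ccl21a* are not printed and held none of the motifs searched. Of the 5, *Cxcl10* alone held the letters of the interferon-stimulated response element.

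Each signal is given as a level, the log2 signal minus the array's 75th percentile over the probes detected on all 6 arrays, and each difference as a log2 fold change of NEXN-S437E over NEXN-WT from limma with its standard error. A probe counts as detected on an array where Feature Extraction marked its signal as well above background. Levels are compared within a probe only. Between 41.9% and 47.8% of the spots on an array were detected, and the 75th percentile signal lay between 693 and 1520. NEXN-WT replicate 1 stood apart, with a mean absolute difference of 0.37 to 0.55 (log2) from the other arrays against 0.19 to 0.32 among the other arrays. *Nexn* itself did not differ detectably between the groups (log2 fold changes of -0.06 ± 0.26 and 0.06 ± 0.21, SE, for its probes), and the brightest *Clk4* probe was measured on all 6 arrays at 0.05 ± 0.18, which checks no label because all the hearts carry the deletion. The cardiomyocyte transcripts *Myh6* and *Tnnt2* were detected on all 6 arrays by their brightest probes. The study's legend for these arrays counts the samples of a group as separate animals.

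Of the 82 probes, 41 (32 genes) were tested because all 3 arrays of either group detected them. A further 36 were detected on no array, and for 23 genes that was true of every probe. They included most of the receptors (*Ccr1*, *Ccr3*, *Ccr4*, *Ccr6*, *Ccr8*, *Ccr9*, *Ccr10*, *Cxcr1*, *Cxcr2*, *Cxcr5* and *Xcr1*) and the neutrophil attractants *Cxcl1*, *Cxcl2* and *Cxcl3*. The remaining ligands of this kind were *Ccl1*, *Ccl20*, *Ccl22*, *Ccl26*, *Ccl28*, *Cxcl13*, *Cxcl15*, *Cxcl17* and *Xcl1*. *Ccl3*, *Ccl17* and *Ccr2* were detected on 1 or 2 arrays and were not tested. *Ccr2*, the receptor that brings monocytes out of the marrow, reached levels of -6.29, -6.26 and -6.00 in NEXN-WT hearts and -8.02, -7.04 and -8.07 in NEXN-S437E hearts. It was detected on 2 NEXN-WT arrays and on no NEXN-S437E array, so the lower values are below what the arrays measure. The additional probes of *Ackr1* and *Cxcr4* were also detected on some arrays only.

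Among the 33 probes measured on all 6 arrays, 4 were lower with NEXN-S437E (*Ccl5*, *Cxcl10*, *Ccl21a* and *Ccl12*) and 1 was higher (*Ccl24*) at the study's thresholds of a 2-fold change and an unadjusted p under 0.05, called in what follows. That is 15.2% of these members against 1.66% of all probes detected on all 6 arrays (1.32% lower and 0.341% higher). Over all 41 tested probes, 13 were called, 11 lower and 2 higher, from 11 genes, against 2.57% of all 22998 tested probes (2.03% lower and 0.53% higher). This larger count includes 7 probes tested only because they were detected in NEXN-WT hearts and 1 tested only through NEXN-S437E hearts, so the filter itself favoured a difference in those. At an adjusted p under 0.05 (Benjamini-Hochberg over all tested probes), 5 probes were lower and none higher, against 0.148% of all probes (0.126% lower and 0.0217% higher). They were the probe of *Ccl5* and both probes each of *Ccl4* and *Cxcr6*, and of these *Ccl5* alone was detected on all 6 arrays, while the other 4 probes were tested only through the NEXN-WT arrays. By unadjusted p alone, 15 of the 41 were under 0.05 against 16.4% of all tested probes, and 7 of the 33 against 15.3% of those detected on all 6 arrays. The median log2 fold change was -0.07 over the 33 probes and -0.49 over the 41, beside 0.01 for all tested probes. The groups did not overlap for 13 probes lower and 3 higher, against 12.4% and 14.4% of all tested probes.

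**Figure D1:**
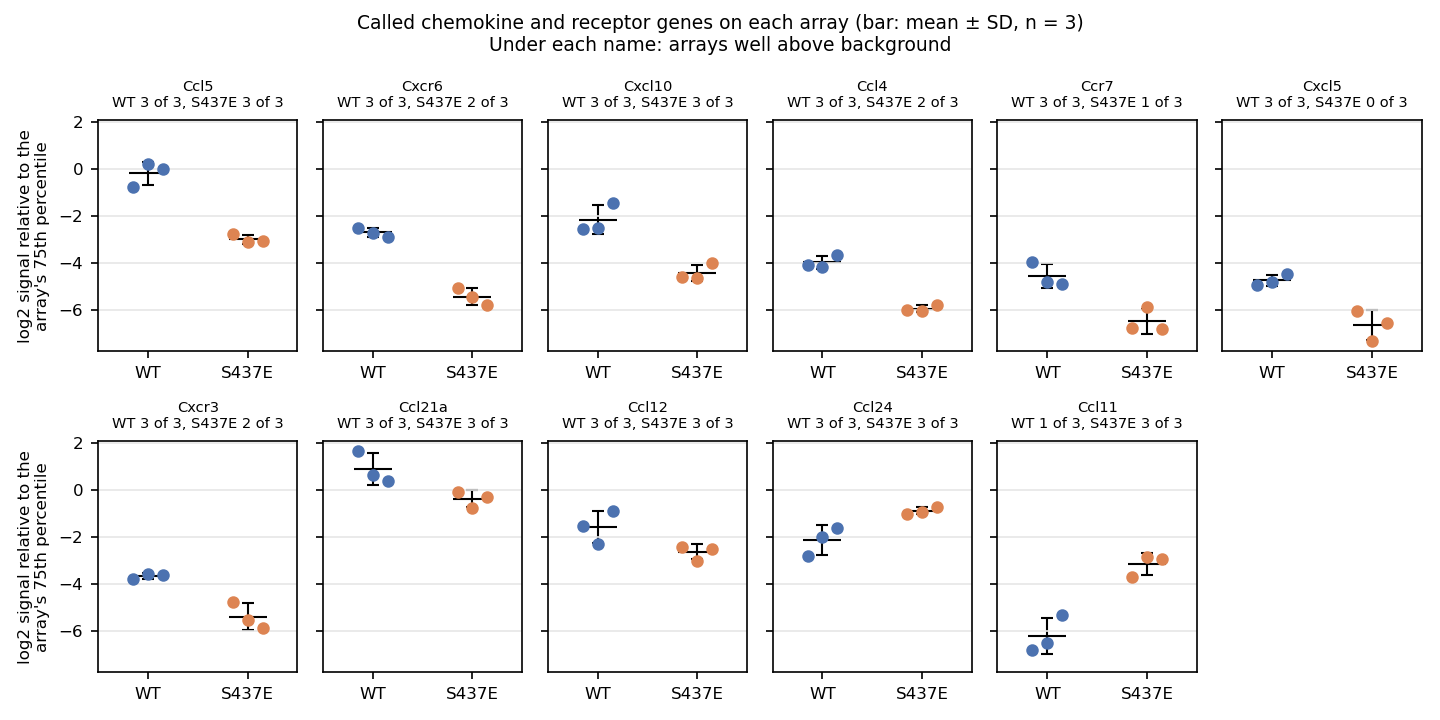
Level (log2 signal relative to the array's 75th percentile) of each called gene, by its brightest called probe, on each of the 3 NEXN-WT and 3 NEXN-S437E arrays, with the mean and SD as bars. The groups do not overlap in any panel, with 9 genes lower and *Ccl24* and *Ccl11* higher with NEXN-S437E.

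*Ccl5*, which attracts T cells and monocytes and is itself made in quantity by memory and cytotoxic lymphocytes, had levels of -0.77, 0.19 and -0.04 in NEXN-WT hearts and -2.80, -3.14 and -3.09 in NEXN-S437E hearts. All 3 NEXN-S437E values lay below every NEXN-WT value, and the probe (mm9, chr11:83339296-83339355) was detected on all 6 arrays. The log2 fold change was -2.80 ± 0.25 (SE, n = 3 per group, adjusted p = 0.0116 in limma), or 6.98-fold lower. It stayed called in all 6 fits that left out an array, but passed the adjusted threshold in 2 of them and in 11 of 19 alternatives. *Ccl4*, another lymphocyte and macrophage product, had levels of -4.11, -4.18 and -3.67 against -6.01, -6.06 and -5.80 by its brighter probe (chr11:83478052-83478111). The groups were again separate, and 2 of the NEXN-S437E arrays detected it. Its log2 fold change was -1.97 ± 0.18 (limma adjusted p = 0.0107), and the adjusted threshold was passed in 2 of 6 fits that left out an array. Its second probe overlaps the first (chr11:83478038-83478097) and is no independent reading. No NEXN-S437E array detected it, and a bound set by detection puts it at least 2.14-fold lower there (limma adjusted p = 0.00237, with the threshold passed in all 6 such fits). Such a bound carries no error and holds for the processing described below only. With normexp background correction the log2 fold change was -0.28.

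*Cxcl10*, an interferon-induced ligand that attracts T and NK cells, had levels of -2.55, -2.51 and -1.47 in NEXN-WT hearts and -4.60, -4.64 and -4.03 in NEXN-S437E hearts. Every array measured it (chr5:92775781-92775840), the groups did not overlap, and the log2 fold change was -2.24 ± 0.32, or 4.74-fold lower, with a limma adjusted p of 0.0764. Its neighbours on chromosome 5 are the other CXCR3 ligands. *Cxcl9*, also induced by interferon-γ, had levels of -0.74, -0.62 and 0.26 against -0.67, -1.21 and -0.77, which overlapped (-0.51 ± 0.29, limma adjusted p = 0.40). *Cxcl11*, whose protein C57BL/6 mice are known not to make, was at 0.22 ± 0.22 and 0.23 ± 0.14 by its probes. The differences between *Cxcl10* and these neighbours were not themselves tested.

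The other lower ligands were *Cxcl5*, *Ccl21a* and *Ccl12*. *Cxcl5*, a neutrophil attractant, had levels of -4.94, -4.80 and -4.48 against -6.06, -7.33 and -6.55 (chr5:91190490-91190549). No NEXN-S437E array detected it, and it was at least 2.25-fold lower by the detection bound (limma adjusted p = 0.0995). With normexp background correction its log2 fold change was -0.19, so its size is uncertain. *Ccl21a*, which lymphatic endothelium and lymph node stroma make to draw in CCR7-bearing cells, had levels of 1.63, 0.62 and 0.35 against -0.08, -0.77 and -0.29 (chr4:42231835-42231894). Its log2 fold change was -1.25 ± 0.34 (limma adjusted p = 0.18), and its near-identical gene copies may share the probe's signal. Without NEXN-WT replicate 1 it was -0.87 and was no longer called. *Ccl12*, a monocyte attractant that acts on CCR2, had levels of -1.54, -2.30 and -0.93 against -2.43, -3.02 and -2.50 (chr11:81916710-81916769), where the nearest values of the groups lay close together. Its log2 fold change of -1.06 ± 0.34 (limma adjusted p = 0.22) lay just past the 2-fold threshold, and 8 of 19 processing alternatives put it under a threshold. It fell short without NEXN-WT replicate 3 (-0.73) and without NEXN-S437E replicate 2 (-0.88).

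Both higher genes encode eotaxins, ligands of CCR3 that attract eosinophils. *Ccl24* had levels of -2.83, -2.00 and -1.61 in NEXN-WT hearts and -1.03, -0.93 and -0.73 in NEXN-S437E hearts. It was measured on all 6 arrays (chr5:136046485-136046544) without overlap, at 1.25 ± 0.30 (2.38-fold higher, limma adjusted p = 0.15), and at 0.91, no longer called, without NEXN-WT replicate 1. *Ccl11* had levels of -6.81, -6.52 and -5.34 against -3.70, -2.86 and -2.96 (chr11:81876369-81876428). Only 1 NEXN-WT array detected it, against all 3 NEXN-S437E arrays, and the log2 fold change was 3.05 ± 0.40 (limma adjusted p = 0.0589). Since 2 of the 3 NEXN-WT values lay under detection, its size is uncertain, and it was 1.44 with normexp background correction. It passed the adjusted threshold in 5 of 18 alternatives. Their receptor *Ccr3* was detected on no array. The eosinophil markers *Siglecf*, *Epx*, *Prg2* and *Il5ra* were also detected on no array, whereas *Ear2*, which eosinophils and some macrophages express, was detected on all 6 (-0.59 ± 0.32) and *Ear1* on 3. None of the 6 eosinophil and mast cell markers tested was called (median log2 fold change 0.25).

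The 3 called receptors are lymphocyte receptors, and all were lower with NEXN-S437E. *Cxcr6*, the receptor for CXCL16 on T cells and NKT cells, had levels of -2.52, -2.72 and -2.90 in NEXN-WT hearts and -5.07, -5.48 and -5.80 in NEXN-S437E hearts by its brighter probe (chr9:123720719-123720778). The groups lay far apart with a log2 fold change of -2.74 ± 0.21 (limma adjusted p = 0.0067), and 2 NEXN-S437E arrays detected it. The second probe (chr9:123720605-123720664) does not overlap the first on the genome, and no NEXN-S437E array detected it. It was at least 4.54-fold lower by the detection bound (limma adjusted p = 0.0107), but at -0.71 (log2) with normexp background correction. The adjusted threshold was passed in 5 and 4 of the 6 fits that left out an array, for the brighter and the second probe. *Cxcr3*, the receptor for CXCL9 and CXCL10 on activated T and NK cells, had levels of -3.80, -3.58 and -3.63 against -4.76, -5.56 and -5.89 (chrX:98926920-98926979). The NEXN-WT values were within a narrow range and above all the NEXN-S437E values, 2 of which were detected (-1.73 ± 0.28, limma adjusted p = 0.0951). *Ccr7*, which directs naive T cells and mature dendritic cells to lymph nodes, had levels of -3.95, -4.84 and -4.91 against -6.78, -5.89 and -6.82 (chr11:99005551-99005610). Its log2 fold change was -1.93 ± 0.34 (limma adjusted p = 0.11). Since 2 of the 3 NEXN-S437E values lay under detection its size is uncertain, and it was -0.32 with normexp background correction. The probes of *Cxcr4* and *Cx3cr1* were not called, with log2 fold changes from -0.74 to -0.35. All 8 receptor probes tested had a log2 fold change below 0, with a median of -1.23, but 4 of them were tested only through the NEXN-WT arrays, and over the 4 detected on all 6 arrays, none of them called, the median was -0.70.

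**Figure D2:**
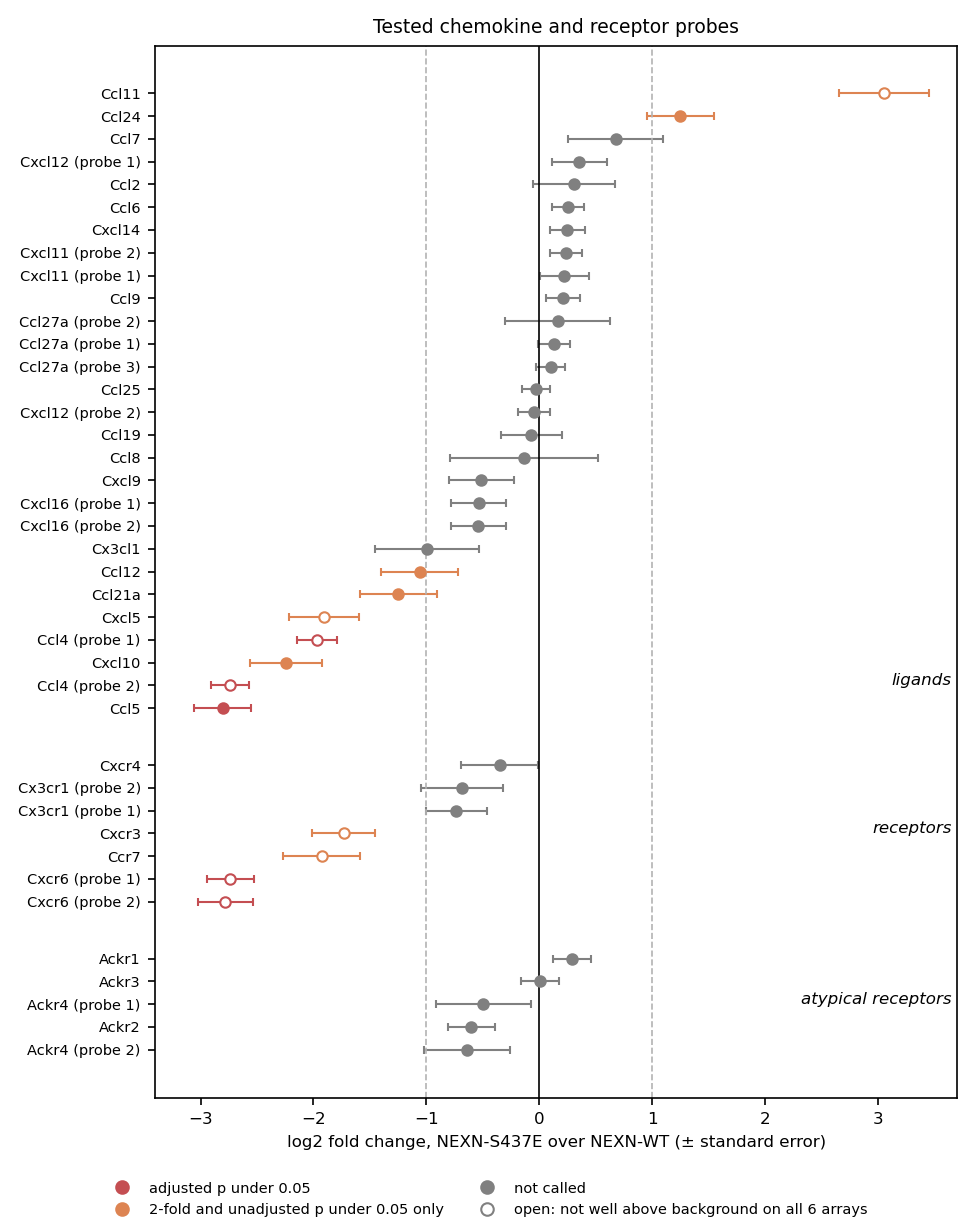
Log2 fold change (NEXN-S437E over NEXN-WT, ± standard error from limma) of 40 tested probes by role, with dashed lines at 2-fold, and with probe 1 of a gene the brightest. The 5 red points pass an adjusted p of 0.05, the orange points are called at 2-fold and unadjusted p only, and open points were not detected on all 6 arrays.

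Setting ligands beside their receptors, 9 of the known pairs with both genes tested are reported. In 2 of these pairs both genes were lower, *Cxcl10* with *Cxcr3* and *Ccl21a* with *Ccr7*. Both of these receptors were tested only through the NEXN-WT arrays, so the filter favoured a difference in them. In the other pairs with a called gene the partner was not called. *Cxcl16*, the membrane-bound ligand of CXCR6, was at -0.54 ± 0.24 (limma adjusted p = 0.33) by its brighter probe, with all 3 NEXN-S437E values below those of NEXN-WT. *Ccl19*, the second ligand of CCR7, overlapped between the groups (-0.07 ± 0.27). The partners *Ccr1* and *Cxcr2* were detected on no array and *Ccr2* was not tested.

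**Figure D3:**
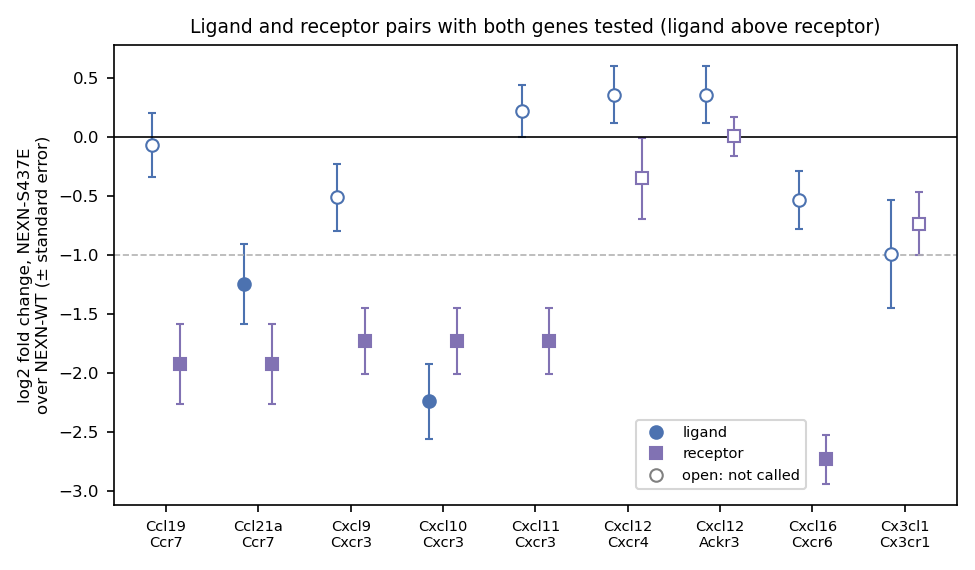
Log2 fold change (NEXN-S437E over NEXN-WT, ± standard error) of each ligand (circle) and its receptor (square) in 9 pairs with both genes tested, by the brightest tested probe, with a dashed line at a 2-fold decrease. Filled points are called, and both points are filled for *Ccl21a* with *Ccr7* and *Cxcl10* with *Cxcr3* only. Both of these receptors were tested only through the NEXN-WT arrays.

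The 5 member genes whose probes gave the highest mean signal were measured on all 6 arrays and none was called. Signals of different probes are not on 1 scale, so this picks bright probes and is no order of transcript amounts. *Cxcl12*, the homeostatic ligand that retains progenitor cells and guides vessel growth, had levels of 2.67, 3.39 and 3.42 in NEXN-WT hearts and 3.81, 3.42 and 3.31 in NEXN-S437E hearts (0.36 ± 0.24, limma adjusted p = 0.47). *Ackr3*, the atypical receptor that takes up CXCL12, was at 0.00 ± 0.17 (limma adjusted p = 0.99). *Ccl6* and *Ccl9*, ligands of CCR1 made by myeloid cells, were at 0.25 ± 0.14 and 0.21 ± 0.15, and *Cxcl11* is given above. The other atypical receptors, *Ackr1*, *Ackr2* and *Ackr4*, had log2 fold changes from -0.64 to 0.29 with no call.

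Chemokine genes lie in clusters, and neighbours within a cluster were not all called in the same direction. On chromosome 11 (mm9, chr11:81850650-81990510), *Ccl11* was higher and *Ccl12*, within the same cluster, was lower. *Ccl2* and *Ccl7* beside them, both monocyte attractants, were at 0.31 ± 0.36 and 0.68 ± 0.42 and *Ccl8* at -0.14 ± 0.66, with no call and overlapping groups. In the second chromosome 11 cluster (chr11:83339296-83478111), *Ccl5* and *Ccl4* were lower at its ends while *Ccl9* and *Ccl6* between them were not called. In the receptor cluster on chromosome 9 (chr9:123680935-124046639), 7 genes lie together, of which *Cxcr6* was lower and *Ccr9*, *Xcr1*, *Ccr1*, *Ccr3* and *Ccr2* were not tested.

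Of 95 tested genes in 4 lists of the surrounding pathway, 5 were lower (5.26%) and none higher, where over all genes by their brightest tested probe 2.44% were called lower and 0.604% higher. Of 48 tested genes of signalling below the receptors, 2 were lower and none higher, among them *Pak1*, a kinase that remodels actin (-1.20 ± 0.26, limma adjusted p = 0.14). Only 1 NEXN-S437E array detected *Pak1*, so its size is uncertain. Of the signalling list, 40 of 48 genes had a log2 fold change below 0 (median -0.24), against 50.7% of all genes, and in 16 the groups did not overlap, lower with NEXN-S437E, against 14.9% of all genes. Of 19 tested genes of leukocyte adhesion and egress, the integrin subunits *Itgb7* (-1.60 ± 0.24, limma adjusted p = 0.078) and *Itgax* were lower. No NEXN-S437E array detected *Itgax*, which was at least 2.14-fold lower by the detection bound. Of 21 tested cytokines, receptors and factors known to induce chemokine genes, *Il1b* alone was called (-1.79 ± 0.63, limma adjusted p = 0.24). Only 1 NEXN-S437E array detected *Il1b* and its groups overlapped, so its size is uncertain. In 11 of these 21 the groups did not overlap, lower with NEXN-S437E (list median -0.34). Of the 5 called pathway genes, *Itgb7* alone was detected on all 6 arrays, and the others were tested only through the NEXN-WT arrays. None of the 7 tested chemokine-related genes outside the symbol rule, such as *Pf4*, *Mif* and *Cd74*, was called. This list leaned the other way, with a median of 0.38. The groups did not overlap for 4 of the 7, higher with NEXN-S437E (against 14.4% of all tested probes), and for 1, lower.

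Several T cell markers and NK and cytotoxic cell markers were also lower with NEXN-S437E. Of 11 tested T cell markers, 7 were lower and none higher, 4 of them at an adjusted p under 0.05 (*Cd3d*, *Cd3g*, *Cd6* and *Lck*, against 0.153% of all genes), and the median over the 11 was -1.80 (log2), or -0.62 over the 7 of them detected on all 6 arrays. Of the 7 called, 4 were tested only through the NEXN-WT arrays, *Cd3g* and *Cd6* among them, and 3 of the 7 T cell markers detected on all 6 arrays were called. *Cd3d*, a chain of the T-cell receptor complex, was at -2.57 ± 0.28 (limma adjusted p = 0.0269). *Cd3g* was at least 2.31-fold lower by the detection bound, with no NEXN-S437E array detecting it. *Cd4*, *Cd28* and *Cd247* were not called, at 0.14 ± 0.15, 0.42 ± 0.13 and 0.28 ± 0.20, and *Cd3e* was at -0.62 ± 0.21. All 7 tested NK and cytotoxic cell markers were lower (median -1.66), among them *Nkg7*, a protein of cytotoxic granules (-2.86 ± 0.36, limma adjusted p = 0.0453), and *Gzma* (-1.66 ± 0.37), while *Ncr1*, *Klrb1c* and *Prf1* were detected on no array. Only 2 of these 7 were detected on all 6 arrays, and the other 5 were tested only through the NEXN-WT arrays, so the filter favoured a difference in them. The summed linear level of the list, in units of the array's 75th percentile, was 0.40 to 0.91 in NEXN-WT hearts and 0.15 to 0.20 in NEXN-S437E hearts for NK and cytotoxic markers and 1.58 to 2.26 against 1.42 to 1.83, which overlapped, for T cell markers. Such a sum is weighted towards its brightest probes. The part of these cells in the lower chemokine signals was not tested, and in whole myocardium fewer cells of a type and less RNA per cell cannot be told apart.

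**Figure D4:**
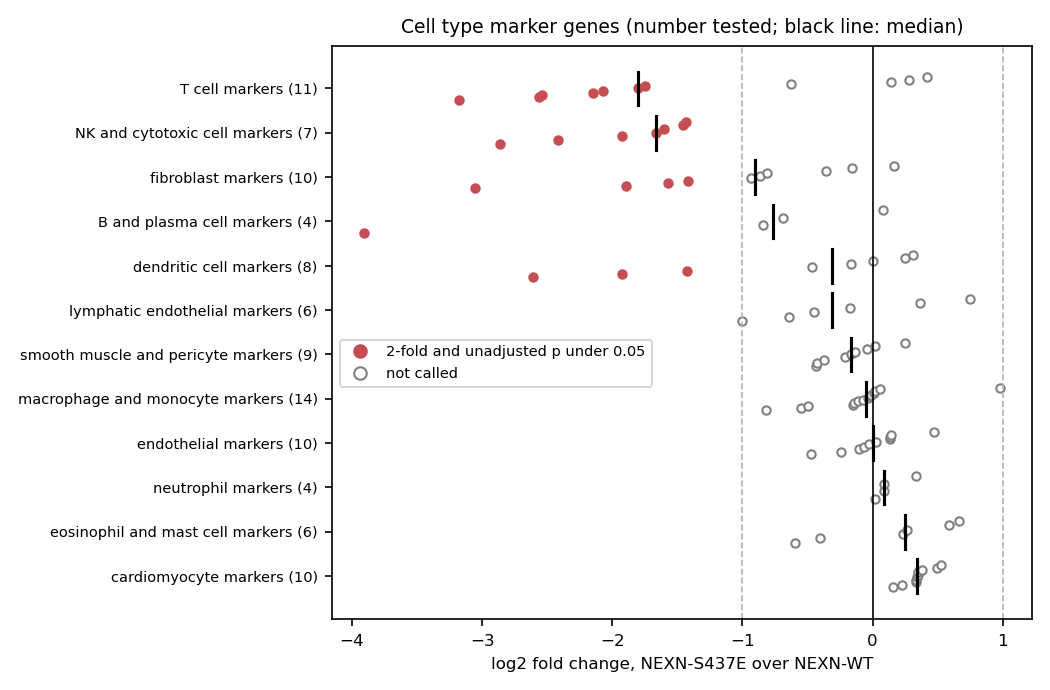
Log2 fold change (NEXN-S437E over NEXN-WT) of the tested genes of 12 cell type marker lists, each by its brightest tested probe, with the median as a black line and dashed lines at 2-fold. The T cell and NK and cytotoxic lists have medians of -1.80 and -1.66, with 4 of 11 and 5 of 7 genes tested only through the NEXN-WT arrays (over the genes detected on all 6 arrays the medians are -0.62 for 7 genes and -2.26 for 2), and the macrophage, endothelial and cardiomyocyte lists have medians of -0.05, 0.00 and 0.34 with no gene called.

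Of the other lists, 1 of 4 tested B and plasma cell markers (*Jchain*, at least 4.36-fold lower by the detection bound), 3 of 8 dendritic cell markers (*Cd209a*, *Itgax* and the member *Ccr7*) and 4 of 10 fibroblast markers (*Postn*, *Col1a1*, *Col1a2* and *Col3a1*) were lower. *Jchain* and the 3 dendritic cell genes were tested only through the NEXN-WT arrays, and none of the 5 dendritic cell markers detected on all 6 arrays was called. The summed level of the fibroblast list was 157 to 235 in NEXN-WT hearts, highest in replicate 1, and 131 to 138 in NEXN-S437E hearts. None of 14 macrophage and monocyte, 4 neutrophil, 10 endothelial, 6 lymphatic endothelial, 9 smooth muscle and pericyte or 10 cardiomyocyte markers tested was called. Their summed levels overlapped between the groups except for the cardiomyocyte list, which was 445 to 537 in NEXN-WT hearts and 615 to 649 in NEXN-S437E hearts.

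The size of the differences depended on how background was treated. The sign of all 13 called probes was kept in every alternative that tested it (17 to 19 each), and 10 of them were called in all 6 fits that left out an array. With normexp background correction, which adds an offset to each signal, 6 of the 41 probes were called. *Ccl5* (-2.29), *Cxcl10* (-1.28), *Ccl21a* (-1.25) and the brighter *Cxcr6* probe (-1.11) stayed lower and *Ccl11* (1.44) and *Ccl24* (1.07) higher, whereas *Ccr7* (-0.32), *Cxcl5* (-0.19), *Cxcr3* (-0.46), both *Ccl4* probes (-0.48 and -0.28), the second *Cxcr6* probe (-0.71) and *Ccl12* (-0.82) fell short of 2-fold. With the row of the slide as a block, which rests on the row that held all 3 NEXN-WT arrays and NEXN-S437E replicate 1, 12 probes were called, *Ccl12* and *Ccl21a* not among them, and none passed the adjusted threshold.

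**Figure D5:**
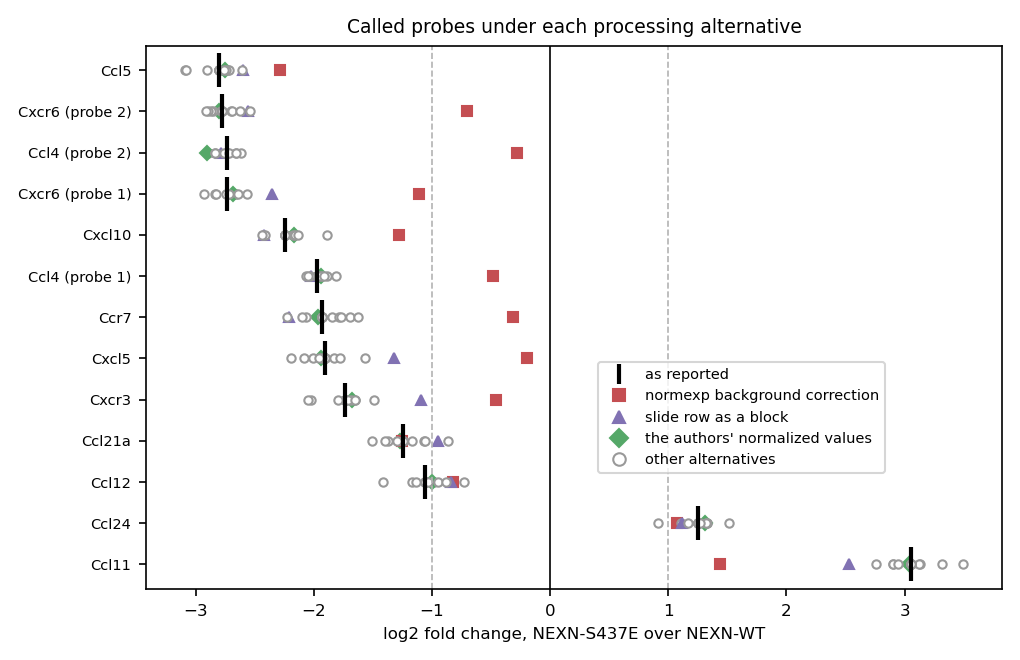
Log2 fold change (NEXN-S437E over NEXN-WT) of the 13 called probes as reported (black bar) and under up to 19 processing alternatives, with dashed lines at 2-fold. No point crosses 0, and the red squares, for normexp background correction, lie nearest to 0 for the dimmer probes.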

How the data were processed

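Total RNA from the myocardium of 6 *Clk4*-cKO mice was labelled with Cy3 and hybridised to Agilent SurePrint G3 Mouse Gene Expression v2 arrays. Per the file headers, the authors scanned all 6 arrays of 1 slide in 1 scan and processed them with Feature Extraction 10.7.1.1, and the deposited values are intensity per spot, already background-subtracted. A second table deposited by the authors holds log2 values that they had normalized and serves as an alternative (its sorted columns differ by at most 0.106, as after quantile normalization).

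For this report, control spots and outlier-flagged spots were dropped, the spots of a probe were averaged as log2 signals, and the array's 75th percentile over the 21110 probes detected (marked well above background) on all 6 arrays was subtracted. A probe was tested if all 3 arrays of either group detected it (22998 of 56605), with limma 3.58.1 in R 4.3.3 (lmFit and eBayes, 2-sided, no covariates), and p-values were adjusted by the Benjamini-Hochberg method over all of them. A probe was called at a 2-fold change and an unadjusted p under 0.05, the thresholds of the study, or at an adjusted p under 0.05. The script was tested on simulated data. The number of arrays limits the precision.

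A probe that no array of a group detected is given a bound, the bright group's mean against the higher of each dim array's own value and its lowest detected signal. The bound carries no error, so "at least" holds for this processing only and not under other background treatments. Every called member was described by its values on each array, as were tested partners of called genes and the 5 members of highest mean signal in less detail, and up to 4 called genes of each of 4 pathway and 12 marker lists. The members and lists were chosen with earlier results of these data known. Gene symbols and mm9 probe positions are those of the array files, and all 58 member symbols were found in RefSeq. Alternatives covered normalization, background correction, filters, the methods' t-test, an intensity trend, array weights, a replicate block, the slide row, 1 probe per gene and leaving out each array. Figures were drawn with matplotlib 3.10.9. Some genes of the lists and figures are not reported here.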

Additional observations from a re-analysis of the deposited data

How the results depend on the processing

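The precision of an array value is limited by its signal over background. Of 408 values of the named genes under the alternatives, 390 kept their side of the threshold, among them 15 of the uncalled *Ackr3*, *Ccl19* and *Cxcl11* that changed sign, 17 lost the call (7 of them under normexp background correction), 1 gained it (without NEXN-S437E replicate 3) and 0 reversed with a call.

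Against 13 member probes called at 2-fold and unadjusted p, 5 at adjusted p and a median log2 fold change of -0.49, normexp background correction gave 6, 3 and -0.042 while moving the median of all tested probes from 0.01 to 0.12. Without a filter on dim probes, 1 member probe passed the adjusted threshold and the median was 0.10, and the calls over all probes rose from 590 to 1948. Requiring all 6 arrays gave 5, 1 and -0.071, with 354 calls over all probes. Array weights gave 11 at adjusted p and a median of -0.028, with 485 of all probes at adjusted p against 34. The methods' t-test gave 12 at 2-fold and unadjusted p and 0 after adjustment, and the slide row as a block gave 12 and 0, with 0 of all probes passing in either and 416 and 803 called at 2-fold and unadjusted p. Taking 1 probe per gene gave 3 at adjusted p. With the 75th percentile over all probes, 12 were called, 6 passed the adjusted threshold and the median was -0.42. Of those 6, 5 were lower and 1, *Ccl11*, was higher.

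The replicate numbers were not taken to pair the samples. Same-numbered arrays deviated from their group means with correlations of -0.15, -0.03 and -0.18, which cannot exclude a pairing with 3 arrays per group. With the replicate block 13 probes were called and 3 passed the adjusted threshold. Leaving out each array gave 11 to 14 calls, 1 to 6 at adjusted p and medians of -0.69 to -0.16, with 1 at adjusted p without NEXN-WT replicate 2, 3 without each NEXN-S437E replicate and the median of -0.16 without NEXN-WT replicate 1.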
